A study of Bos taurus with 24 samples.

Results

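The genes described here are those of glutathione and thioredoxin metabolism and of antioxidant defence in the bovine oocyte. They were taken from the deposited expression table by gene symbol: glutathione peroxidases (GPX), peroxiredoxins (PRDX), thioredoxins and their relatives (TXN), glutathione S-transferases (GST and MGST), glutaredoxins (GLRX), superoxide dismutases, catalase, the enzymes of glutathione synthesis and recycling, methionine sulfoxide reductases, sulfiredoxin, the NQO quinone reductases, heme oxygenases, and the regulators NFE2L2 and KEAP1. The rule found 64 rows, which carry 63 symbols, among the 11306 rows of the table. One symbol, GSR, is listed at 2 loci, which were kept apart. A value over 0.1 in at least 1 library was reached by 59 of the 64 rows, and those 59 were tested. The other 5 (TXNDC16, SOD3, GSTT2, GSTO2 and MSRA) stayed at or under 0.1 everywhere.

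The libraries were made from oocytes of adult crossbred Bos taurus Angus-based beef cows, neither lactating nor pregnant, kept under the same management in both seasons. The 4 groups are GV and MII oocytes, each collected in May (spring) and in July (summer). GV oocytes are immature and hold an intact germinal vesicle. MII oocytes were taken as such after maturation in vitro, and the study scored nuclear maturation by DAPI staining during its immunocytochemistry. Each group holds 6 libraries, and per the study each library is a pool of 4 oocytes of 1 animal, freed of cumulus cells. Values are FPKM, that is, fragments corrected for transcript length and for the fragments of the library. The pools of the 2 seasons come from 1 herd, and the labels do not say which pools share an animal, so p-values measure the spread between pools. The kit captured and amplified mRNA from lysed oocytes, so a level is that of captured mRNA relative to the rest of its library, and fewer contributing cells and less RNA per cell cannot be told apart.

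Glutathione is the main small thiol of the oocyte and is known to accumulate during maturation. Glutathione peroxidases use it, and peroxiredoxins use thioredoxin, to reduce peroxides that superoxide dismutases form from superoxide. Glutathione S-transferases couple glutathione to reactive compounds, glutaredoxins reduce protein disulfides with its help, and the transcription factor NRF2 (NFE2L2), held back by KEAP1, is the known activator of many of these genes.

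All libraries carried oocyte markers. The summed FPKM of the 10 oocyte markers listed was between 824 and 2230. Of 20 cumulus and granulosa markers listed, 10 had a median at or under 0.1, among them FSHR, CYP19A1 and CD44. Others were well above it, with group medians of 14.8 to 24.5 for STAR, 18.0 to 26.9 for KRT8 and 1.19 to 2.93 for PTGS2. These enter the cumulus sum of every library. The cumulus sum was 27.1 to 162 in 22 libraries, 199 in spring GV replicate 3 and 588 in spring GV replicate 6, the latter mostly KRT18 at 392. Read counts are not given in the table, but low values lie on regular steps, whose width gave a depth relative to spring GV replicate 1. Only 3 libraries were under 0.5 on this scale: replicate 6 of spring GV at 0.0565, replicate 6 of spring MII at 0.149, and replicate 2 of summer GV at 0.393. The others lay between 0.542 and 6.51. Calls and adjusted p-values that change side without these 3 shallow libraries are given both ways.

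These genes took up a small part of the table with a few very abundant transcripts. Their summed FPKM made up 3.42% ± 1.23 of the library total in spring GV oocytes (SD, n = 6) and 3.99% ± 1.28 in summer GV oocytes, and 1.78% ± 0.599 and 1.95% ± 0.530 in MII oocytes of spring and summer. The ratio of the MII mean to the GV mean was 0.520 in spring and 0.489 in summer. The lowest GV shares, 1.08% in spring and 1.60% in summer, came from shallow libraries and lay within the MII ranges of 0.940% to 2.76% and 1.35% to 2.68%. GSTM3, PRDX2, GLRX and GPX4 together gave between 58.8% and 92.6% of that sum in each library. By mean FPKM over all libraries, GSTM3 ranked 7 among all genes of the table, but the order depended on the stage. GSTM3 ranked 6 by its mean in GV and 8 in MII oocytes, PRDX2 ranked 8 and 84, GPX4 28 and 836, and GLRX 85 and 51.

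**Figure D1:**
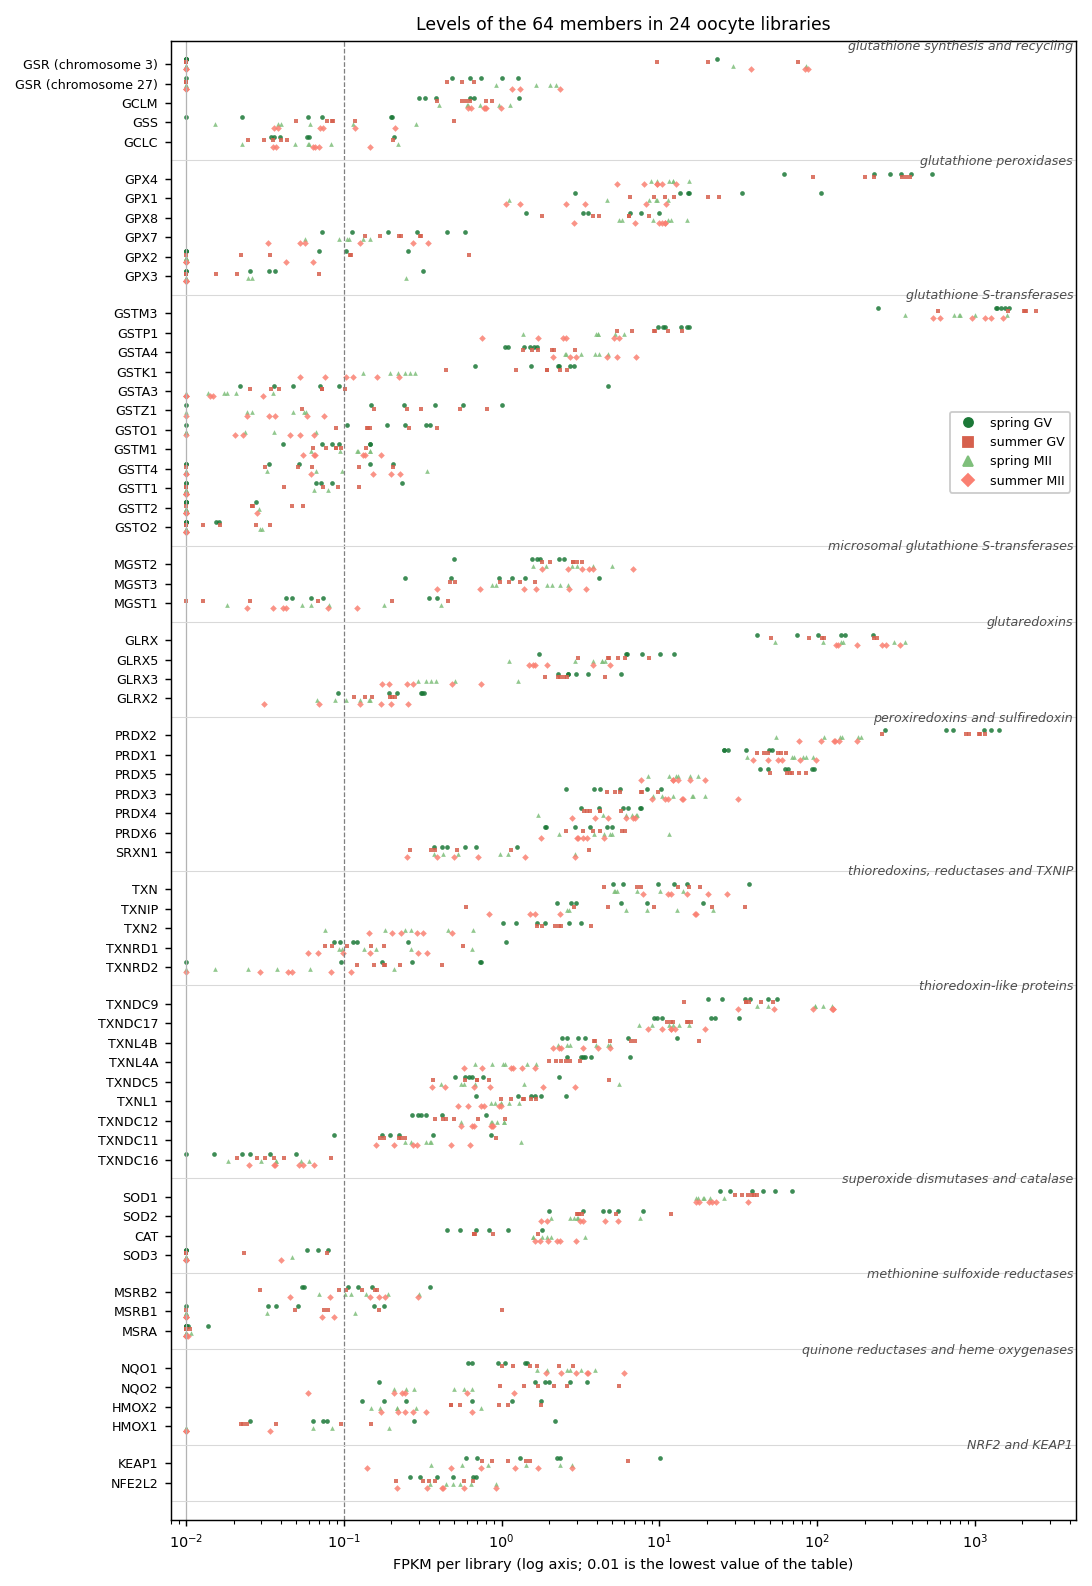
FPKM of each of the 64 rows (log axis) in each of the 24 libraries, ordered by role and then by mean level, with 1 point per library and the groups in colours. The dashed line at 0.1 is the filter and the solid line at 0.01 the lowest value of the table. GSTM3 and PRDX2 stand highest, the GPX4, PRDX2 and PRDX5 points of GV lie to the right of those of MII, and spring and summer points overlap in almost every row.

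Between GV and MII, the 3 members that moved most, GPX4, PRDX2 and PRDX5, encode peroxide-reducing enzymes, and all 3 were lower in MII in both seasons. Limma was fitted over all 9526 genes that passed the filter. A call took the study's limits of more than 2-fold and p under 0.05 before adjustment, here on the log2(FPKM + 1) scale. The study itself used Partek GSA, and reported fewer genes between stages and more between seasons than these fits called. The calls are therefore not those of the study. In spring, 12 of 59 members were called, 3 higher and 9 lower in MII, where 11.8% of all genes were called (3.57% higher and 8.25% lower). In summer, 10 members were called, 1 higher and 9 lower, against 11.5% of all genes (2.2% higher and 9.26% lower). At a Benjamini-Hochberg adjusted p under 0.05 with no fold limit, 19 members passed in spring, 7 higher and 12 lower, and 23 in summer, 5 higher and 18 lower. Of all genes, 24.2% passed in spring (9.45% higher and 14.7% lower) and 30.7% in summer (7.67% higher and 23.1% lower). In spring 2 members were higher in every MII library than in any GV library and 8 were lower in every one, where 4.65% and 8.98% of all genes showed this. In summer 0 were higher and 10 lower without overlap, against 3.07% and 14.7%. Rescaling each library by the median of its ratios to the other libraries turned the spring split from 3 higher and 9 lower into 0 higher and 12 lower, and left the summer split as it was. The median change of the members was -0.06 in spring and -0.07 in summer on the log2 scale, and that of all genes was -0.03 and -0.02.

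Of the called members, 8 were called in both seasons, which is 66.7% of the spring calls and 80% of the summer calls. The corresponding shares over all genes are not given here, so this is not read as particular to the members. The 7 that fell both times are GPX4, PRDX2, PRDX5, GLRX3, GSTP1, GSTK1 and TXN2, and TXNDC9 was the 1 that rose both times. The stage comparisons of the 2 seasons share no library. The change had the same sign in both seasons for 55 of 59 members, and across members the 2 changes correlated with Pearson's r = 0.946. Over all 9526 genes, the sign was the same for 85.5%, and r was 0.928. Genes are not independent replicates, so these are descriptions.

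**Figure D2:**
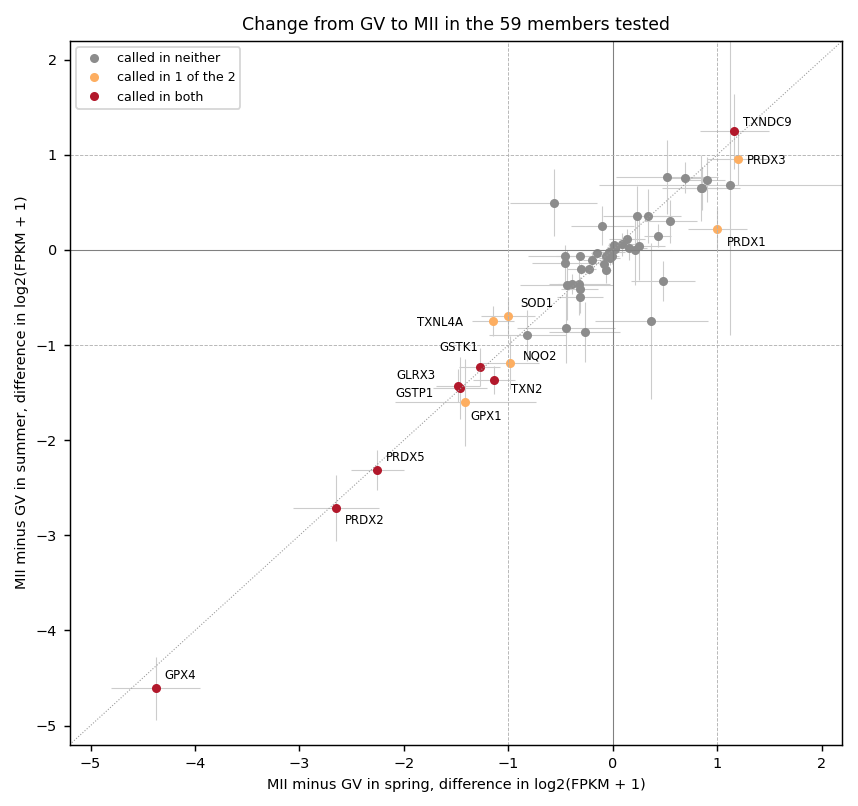
Difference between MII and GV in log2(FPKM + 1) in spring (horizontal axis) and in summer (vertical axis), with 1 point for each of the 59 members tested and lines for 1 standard error. Dashed lines mark a 2-fold change, the dotted line equal changes, and colour shows in how many of the 2 seasons a member was called. GPX4 lies farthest out at -4.38 and -4.61, followed by PRDX2 and PRDX5, and TXNDC9 at 1.17 and 1.25 is the only member called higher in both.

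Among the glutathione peroxidases, GPX4 fell most of all members. It encodes the selenoenzyme that reduces lipid hydroperoxides within membranes, and lies on chromosome 7 from 45205077 to 45207499 on UMD3.1.1. In GV oocytes it ran from 62.0 to 532 FPKM in spring, with a median of 315, and from 94.8 to 388 in summer, with a median of 285. In MII oocytes the range was 8.83 to 15.4 (median 11.8) in spring and 5.41 to 12.8 (median 9.65) in summer. Every MII library was below every GV library of its season, and the lowest GV values belonged to the shallow libraries. The mean was 26.5-fold lower in MII in spring and 29.0-fold lower in summer. On the log2 scale GPX4 fell by 4.38 (SE 0.423, limma adjusted p = 4.49e-05) in spring and fell by 4.61 (SE 0.333, adjusted p = 3.15e-06) in summer.

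GPX1, the general cytosolic and mitochondrial peroxidase, was called in summer. It ran from 6.52 to 23.9 FPKM in summer GV oocytes (median 11.6) and from 1.07 to 11.0 in summer MII oocytes (median 2.98), so that the groups overlapped, and fell by 1.60 (SE 0.459, adjusted p = 0.0188). In spring it ran from 2.93 to 106 in GV (median 15.3) and from 1.11 to 11.3 in MII (median 9.04). The spring difference was -1.41 (SE 0.674, limma adjusted p = 0.14). The value of 106 came from spring GV replicate 3, the library with the cumulus sum of 199, and without it the spring difference was -0.92. Without the 3 shallow libraries it was -1.51 (adjusted p = 0.038) and met the call thresholds. GPX8, an endoplasmic reticulum peroxidase with GV medians of 5.03 and 5.27 FPKM, met neither threshold, with differences of 0.85 and 0.65. Without spring GV replicate 3 the spring difference was 1.04 (limma adjusted p = 0.0547) and met the call thresholds. GPX8 overlaps CDC20B on the same strand. The remaining peroxidases GPX2, GPX3 and GPX7 stayed at or under 0.619 FPKM in every library.

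Among the peroxiredoxins, the abundant members moved in opposite directions. PRDX2, a cytosolic peroxiredoxin encoded on chromosome 7 from 13845843 to 13848480, ran from 269 to 1425 FPKM in spring GV oocytes (median 939) and from 55.1 to 189 in spring MII oocytes (median 142). In summer it ran from 260 to 1157 in GV (median 989) and from 77.2 to 180 in MII (median 129). The stages did not overlap in either season. PRDX2 fell by 2.65 in spring (SE 0.412, limma adjusted p = 0.000823) and fell by 2.71 in summer (SE 0.351, adjusted p = 0.00013). PRDX5, which acts in mitochondria and peroxisomes, ran from 43.3 to 95.9 in spring GV oocytes (median 63.9) and from 8.53 to 17.6 in spring MII oocytes (median 12.9). Its summer ranges were 50.4 to 85.3 (median 68.2) and 7.69 to 19.5 (median 12.7), again apart. It fell by 2.26 in spring (SE 0.252, adjusted p = 0.000115) and fell by 2.31 in summer (SE 0.211, adjusted p = 1.41e-05).

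PRDX3, the peroxiredoxin of the mitochondrial matrix, was higher in MII. It ran from 2.54 to 10.3 FPKM in spring GV oocytes (median 4.90) and from 9.05 to 19.5 in spring MII oocytes (median 14.1), and 5 of 6 MII libraries lay above all of GV. In summer the ranges were 4.69 to 9.82 (median 6.68) and 8.94 to 31.3 (median 12.6). PRDX3 rose by 1.20 in spring (SE 0.301, limma adjusted p = 0.0124), and in summer it passed the adjusted threshold at 0.96 (SE 0.277, adjusted p = 0.0195), just short of 2-fold. The summer difference was 1.06 (adjusted p = 0.0112) without the 3 shallow libraries and met the call thresholds. PRDX1, another cytosolic peroxiredoxin, rose by 1.0 in spring (SE 0.281, adjusted p = 0.0209), from 25.5 to 51.7 FPKM in GV (median 31.4) to 35.7 to 93.9 in MII (median 76.4). In summer it ran from 41.3 to 63.9 in GV (median 52.8) and from 39.3 to 97.7 in MII (median 58.1), and the difference of 0.22 (SE 0.223) was within the spread. With median-of-ratios scaling the spring difference of PRDX1 was 0.77 (adjusted p = 0.0745), and that of PRDX3 was 0.99 (adjusted p = 0.0211). PRDX4, PRDX6 and the sulfiredoxin SRXN1, which repairs overoxidized peroxiredoxins, were called in neither season, with differences between -0.32 and 0.48. The smallest of them, PRDX4 in spring (-0.10) and SRXN1 in summer (0.04), changed sign when some libraries were left out.

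**Figure D3:**
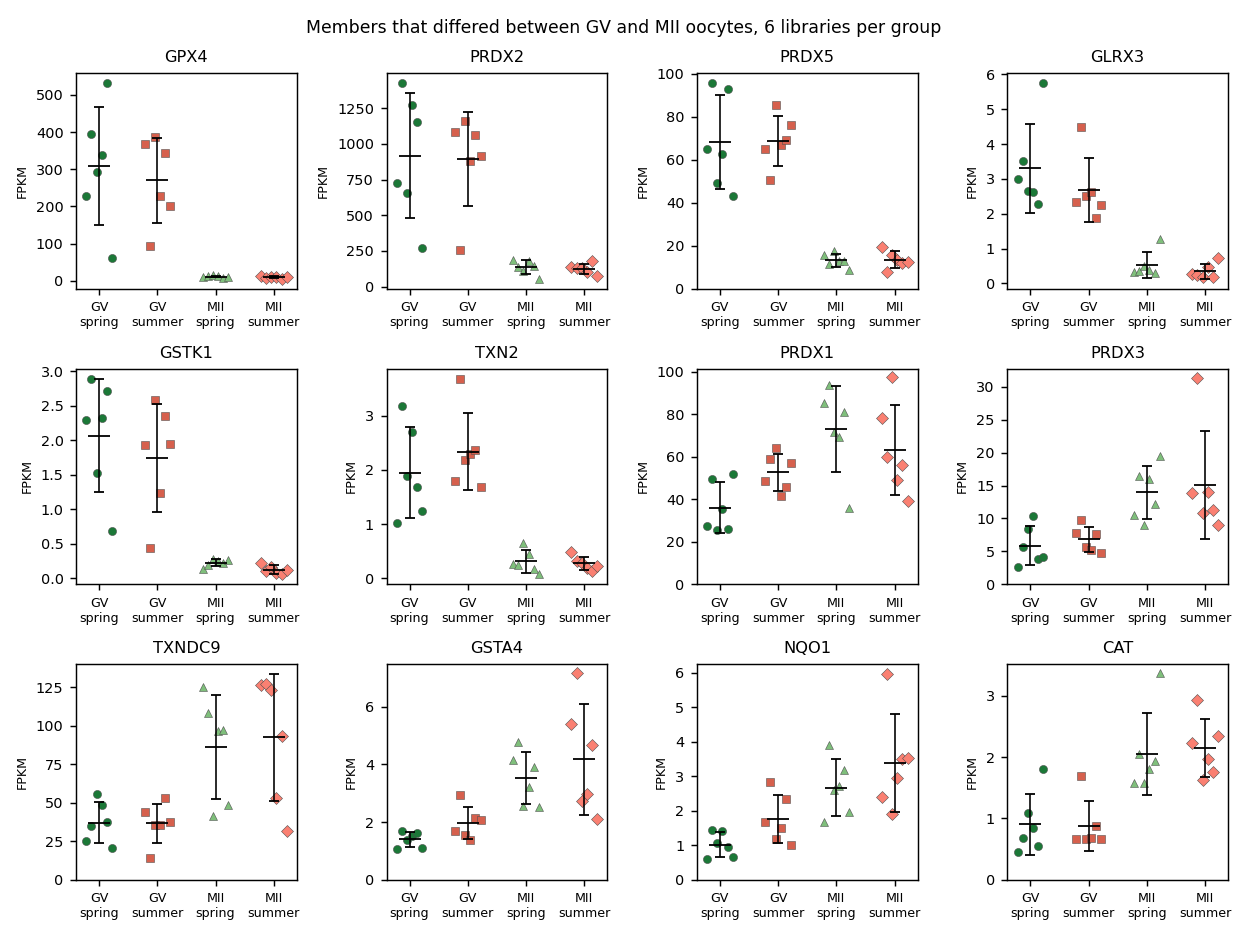
FPKM (linear axes) of 12 members in GV and MII oocytes of spring and summer, with 1 point per library, 6 per group, and the mean with its SD in black. The upper 6 panels show members called lower in MII in both seasons, with GPX4 means of 308 and 270 in GV and 11.6 and 9.34 in MII. The lower 6 show members that were higher in MII at an adjusted p under 0.05 in at least 1 season.

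Glutathione S-transferases included both the most abundant transcript and several that fell. GSTM3, a mu class enzyme on chromosome 3 from 33768050 to 33770825, ran from 242 to 1655 FPKM in spring GV oocytes (median 1425) and from 361 to 1608 in spring MII oocytes (median 802). In summer it ran from 582 to 2456 in GV (median 2068) and from 545 to 1499 in MII (median 1053). The ranges overlapped, and the lowest GV value of each season came from a shallow library. The differences were -0.44 (SE 0.469, limma adjusted p = 0.483) and -0.82 (SE 0.368, adjusted p = 0.109). Without the 3 shallow libraries they were -0.65 (adjusted p = 0.0284) and -1.12 (adjusted p = 0.0062), the latter past the call thresholds. GSTM3 in spring GV replicate 6 was 242, while the other 5 libraries of its group held 1365 to 1655. The sources used here do not say how reads shared by close copies were counted, so the values of transferases of 1 class are uncertain.

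GSTP1, the pi class enzyme, ran from 9.84 to 15.5 FPKM in spring GV oocytes (median 12.3) and from 1.36 to 6.00 in spring MII oocytes (median 4.08). The summer ranges were 5.40 to 13.9 (median 9.30) and 0.754 to 5.55 (median 2.49), which overlapped by 1 library. It fell by 1.46 in spring (SE 0.260, limma adjusted p = 0.00191) and fell by 1.45 in summer (SE 0.328, adjusted p = 0.00538). GSTK1, the kappa class enzyme of mitochondria and peroxisomes, ran from 0.678 to 2.88 in spring GV oocytes (median 2.31) and from 0.132 to 0.282 in spring MII oocytes (median 0.232). In summer it ran from 0.442 to 2.58 (median 1.94) and from 0.053 to 0.225 (median 0.109). The stages were apart in both seasons, with falls of 1.28 (SE 0.200, adjusted p = 0.000854) and 1.23 (SE 0.201, adjusted p = 0.000679). At such low levels the added 1 FPKM understates the change, and the ratio of means was 9.30 in spring and 14.3 in summer.

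GSTA4, an alpha class enzyme known for conjugating the lipid peroxidation product 4-hydroxynonenal, was higher in MII in both seasons at the adjusted threshold, with differences of 0.90 (SE 0.174, limma adjusted p = 0.0032) and 0.74 (SE 0.240, adjusted p = 0.0339). Its FPKM was 1.06 to 1.68 in spring GV and 2.53 to 4.76 in spring MII oocytes, without overlap. GSTA4 and GSTA3 overlap a histone H2B row on the other strand, and a strand setting is not given in the sources used here. GSTZ1 and GSTO1 passed the adjusted threshold as lower in MII in both seasons from GV means of at most 0.392 FPKM. GSTA3, also lower in summer, was at most 0.102 in 23 libraries and 4.75 in spring GV replicate 3. That library also had the highest values of AMH at 13.4, INHA at 37.2 and VIM at 75.7, and of GPX1, TXN at 36.7 and GPX3 at 0.319. The part of those cells in its values was not tested. GSTM1, GSTT1 and GSTT4, and the membrane-bound MGST1, MGST2 and MGST3, passed neither threshold, although GSTT1 in summer reached a limma adjusted p of 0.0451 without the 3 shallow libraries, at a difference of -0.07. The most abundant of the latter, MGST2, had medians of 1.72 and 2.82 in GV and of 2.90 and 3.40 in MII in spring and summer, over ranges of 0.503 to 2.47, 1.80 to 3.23, 1.58 to 5.0 and 1.81 to 6.76.

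Of the 4 glutaredoxins, the abundant cytosolic GLRX and the monothiol GLRX3, which handles iron-sulfur clusters, differed in pattern. GLRX ran from 41.7 to 227 FPKM in spring GV (median 122), 51.2 to 240 in summer GV (median 109), 54.3 to 360 in spring MII (median 144) and 132 to 337 in summer MII oocytes (median 218). The groups overlapped throughout, and the differences of 0.52 and 0.77 gave limma adjusted p = 0.432 and 0.15. GLRX3 ran from 2.28 to 5.75 in spring GV (median 2.82) and from 0.295 to 1.27 in spring MII oocytes (median 0.372). Its summer ranges were 1.88 to 4.50 (median 2.43) and 0.175 to 0.739 (median 0.262). GLRX3 was thus apart between stages in both seasons, and fell by 1.48 (SE 0.211, adjusted p = 0.000471) and fell by 1.43 (SE 0.173, adjusted p = 8.39e-05). With a pseudocount of 0.1 in place of 1, the GLRX3 differences were -2.53 and -2.69. GLRX5, a mitochondrial glutaredoxin of iron-sulfur cluster assembly, passed the adjusted threshold alone, in summer, with a difference of -0.90 (SE 0.266, adjusted p = 0.0225) beside -0.82 (adjusted p = 0.121) in spring. GLRX5 passed in both seasons without the 3 shallow libraries, at -0.91 (adjusted p = 0.00593) and -1.02 (adjusted p = 0.00908), and was called in summer. GLRX2 passed in neither season with all libraries, and in spring without the 3 shallow ones, at -0.19 (limma adjusted p = 0.00497).

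Of the thioredoxins, the mitochondrial one fell and the cytosolic one passed no threshold between stages. TXN2, the former, ran from 1.02 to 3.18 FPKM in spring GV oocytes (median 1.79) and from 0.0762 to 0.658 in spring MII oocytes (median 0.256). In summer it ran from 1.68 to 3.68 (median 2.24) and from 0.145 to 0.482 (median 0.259). There was no overlap, and TXN2 fell by 1.13 (SE 0.201, limma adjusted p = 0.00186) and fell by 1.37 (SE 0.151, adjusted p = 4.71e-05). At these levels too the added 1 FPKM understates the change, with a ratio of means of 6.21 in spring and 8.44 in summer. TXN, the latter, overlapped between stages in both seasons, with medians of 11.0 and 6.33 in GV and MII of spring and of 10.4 and 13.4 in summer. Its differences were -0.57 (adjusted p = 0.327) and 0.50 (adjusted p = 0.304). The reductases TXNRD1 and TXNRD2 were scarce, with group means of at most 0.337 FPKM, and TXNRD2 passed the adjusted threshold in summer as lower in MII, and in spring without the 3 shallow libraries, at -0.37 (limma adjusted p = 0.0471). TXNIP, the inhibitor of thioredoxin, varied widely within groups, from 0.591 to 34.7 in summer GV oocytes.

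Of the thioredoxin-like proteins, TXNDC9, a partner of the chaperonin that folds actin and tubulin, rose in both seasons. It lies on chromosome 11 from 4414187 to 4424371. In spring it ran from 20.4 to 55.8 FPKM in GV (median 36.2) and from 41.3 to 125 in MII (median 96.9). In summer the ranges were 14.4 to 52.8 (median 36.4) and 31.5 to 127 (median 109), so that the groups overlapped in both. The increases were 1.17 (SE 0.335, limma adjusted p = 0.0233) and 1.25 (SE 0.394, adjusted p = 0.0297), and with median-of-ratios scaling the spring value was 0.93 (adjusted p = 0.091). TXNL4A, which despite its fold is a spliceosome component, ran from 2.58 to 6.51 in spring GV (median 3.34) and from 0.679 to 1.65 in spring MII oocytes (median 1.04), and fell by 1.14 (SE 0.201, adjusted p = 0.0018). In summer it ran from 2.01 to 3.16 (median 2.47) and from 0.582 to 1.63 (median 1.17), without overlap, at -0.75 (SE 0.155, adjusted p = 0.00321). TXNL1 in summer and TXNDC12 in spring passed the adjusted threshold alone, at -0.41 and 0.43. TXNL1 passed in spring as well without the 3 shallow libraries, at -0.41 (limma adjusted p = 0.0339). TXNDC12 overlaps KTI12 on the same strand and TXNL1 overlaps SERPINB2.

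SOD1, the cytosolic copper and zinc superoxide dismutase, and catalase, which breaks down hydrogen peroxide in peroxisomes, went in opposite directions. SOD1 ran from 24.2 to 69.5 FPKM in spring GV oocytes (median 41.8) and from 17.0 to 25.7 in spring MII oocytes (median 19.1), and in summer from 30.0 to 41.4 (median 37.5) and from 17.1 to 36.4 (median 21.1). In each season 5 of 6 MII libraries lay below all of GV. SOD1 fell by 1.01 in spring (SE 0.260, limma adjusted p = 0.0143), at the edge of the 2-fold limit, and passed the adjusted threshold in summer at -0.70 (SE 0.190, adjusted p = 0.0147). CAT ran from 0.449 to 1.81 in spring GV (median 0.761) and from 1.58 to 3.37 in spring MII oocytes (median 1.87), and from 0.665 to 1.70 (median 0.673) and 1.63 to 2.94 (median 2.10) in summer. It was higher in MII by 0.69 (SE 0.200, adjusted p = 0.0237) and 0.76 (SE 0.162, adjusted p = 0.00396). With a pseudocount of 0.1 the CAT differences were 1.18 and 1.26, past the call thresholds. SOD2, the mitochondrial manganese enzyme, had medians of 4.57, 3.15, 2.94 and 3.21 in spring GV, summer GV, spring MII and summer MII oocytes within an overall range of 1.77 to 11.8, and passed no threshold.

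NQO1 and NQO2, which reduce quinones, also differed from each other. NQO1 ran from 0.610 to 1.44 FPKM in spring GV (median 0.999) and from 1.67 to 3.91 in spring MII oocytes (median 2.66), without overlap, and from 1.0 to 2.84 (median 1.59) and 1.91 to 5.97 (median 3.22) in summer. It was higher in MII by 0.85 (SE 0.192, limma adjusted p = 0.00708) and 0.65 (SE 0.230, adjusted p = 0.0497). NQO2 ran from 0.977 to 5.59 in summer GV (median 1.92) and from 0.0591 to 1.19 in summer MII oocytes (median 0.239), and fell by 1.18 (SE 0.279, adjusted p = 0.00682). In spring it ran from 0.167 to 3.47 (median 1.94) and from 0.209 to 0.650 (median 0.387), at -0.98 (SE 0.274, adjusted p = 0.0205), and at -1.20 without the 3 shallow libraries. With a pseudocount of 0.1 the NQO2 differences were -1.77 in spring and -2.38 in summer. HMOX2, the constitutive heme oxygenase, passed the adjusted threshold in summer, lower in MII at -0.49. HMOX1, the inducible one, was at most 0.279 in 23 libraries and 2.18 in spring GV replicate 6, the library with the cumulus sum of 588.

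None of the genes for glutathione synthesis or for the NRF2 switch passed a threshold between stages. GCLM, the modifier subunit of the enzyme that starts synthesis, had ranges of 0.299 to 1.29, 0.388 to 0.869, 0.399 to 1.13 and 0.609 to 0.986 FPKM in spring GV, summer GV, spring MII and summer MII oocytes. Its medians were 0.508, 0.611, 0.674 and 0.784. GCLC, the catalytic subunit, and GSS, glutathione synthetase, were near the filter limit, with group medians of 0.0379 to 0.0648 and 0.0506 to 0.0851. Their highest values, 0.221 and 0.496, came from shallow libraries. NFE2L2 ran from 0.214 to 0.924 over all libraries, with medians of 0.441, 0.361, 0.518 and 0.422 in the same order. KEAP1 had medians of 1.78, 1.27, 1.13 and 0.977, and its highest value was 10.2 in spring GV. MSRB2, the most abundant methionine sulfoxide reductase, had medians of 0.115 to 0.156 in all 4 groups.

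GSR, glutathione reductase, which restores oxidized glutathione, had a value at only 1 of its 2 listed loci in each library. The row on chromosome 27 (25943355 to 25973544) had values of 0.450 to 2.35 FPKM in 15 libraries and the lowest value of the table, 0.01, in the other 9. The row on chromosome 3 (99694336 to 99696691, a span of 2356 bp) had values of 9.62 to 87.2 in exactly those 9 libraries and 0.01 in the other 15. The 9 were 1 of 6 in spring GV, 3 of 6 in summer GV, 2 of 6 in spring MII and 3 of 6 in summer MII oocytes, and included the 3 shallow libraries. All 29 symbols of the table listed at 2 loci showed this alternation, with no library having a value at both. GSR levels are therefore given by locus and library, and the fitted differences of its 2 rows, none of which was called, are not read as changes of the gene.

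**Figure D4:**
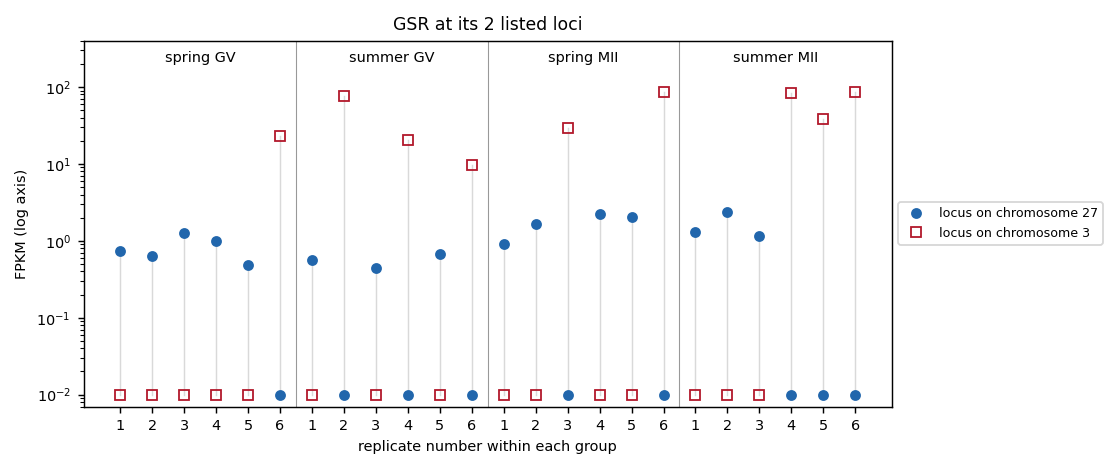
FPKM (log axis) of GSR at its locus on chromosome 27 (filled circles) and on chromosome 3 (open squares) in each of the 24 libraries, ordered by group and replicate number. In every library 1 of the 2 points sits at 0.01, the lowest value of the table, and the other at 0.450 to 2.35 (chromosome 27) or 9.62 to 87.2 (chromosome 3).

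Pathway genes outside the symbol rule were taken as 6 lists: NRF2 regulators and partners, NADPH supply, glutathione and sulfur amino acid turnover, selenoproteins and selenium use, protein disulfide exchange, and other oxidant and quinone handling. Of their 143 symbols 113 were listed and 104 tested. In spring 16 were called between stages, 1 higher and 15 lower, and in summer 14, 2 higher and 12 lower. These are 15.4% and 13.5% of the 104, near the 11.8% and 11.5% of all genes, so the counts are not read as particular to these lists. SEPW1, selenoprotein W, fell from 93.4 ± 39.4 FPKM in spring GV to 7.33 ± 2.41 in spring MII oocytes (SD, n = 6), by 3.39 on the log2 scale (SE 0.377, limma adjusted p = 0.000115), and by 2.98 in summer. HAGH, the glyoxalase that releases glutathione, fell by 1.73 and 1.65, and TALDO1, the transaldolase of the pentose phosphate pathway, by 1.63 and 1.69. Among the aldo-keto reductases, AKR1B1 fell by 1.27 in spring and 1.78 in summer, and AKR1A1 by 1.10 in both. The genes called higher, named after their values were seen, were MAT2B, a subunit of methionine adenosyltransferase, at 1.35 and 1.22, and in summer NADK2, the mitochondrial NAD kinase, at 1.11. By list, turnover genes gave 1 higher and 6 lower calls of 26 in spring and 1 and 4 in summer, selenoproteins 0 and 2 of 15 in both seasons, NADPH supply 0 and 2 of 17 in spring and 1 and 2 in summer, disulfide exchange 0 and 1 of 12 in both, and other oxidant handling 0 and 4 of 20 in spring and 0 and 3 in summer. None of the 14 NRF2 regulators tested was called.

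The question of the study was what summer heat does to the oocyte, and here no member was called between seasons at either stage. These limma fits called 3 genes of the whole table in GV and 4 in MII oocytes. The study reported far more at both stages with Partek GSA. In GV oocytes limma called 0 of 59, against 0.0315% of all genes, and 2 members had an unadjusted p under 0.05, against 1.55% of all genes. In MII oocytes the corresponding counts were 0 (0.042% of all genes) and 2 (2.11%). Every adjusted p was 1 when rounded. No member was without overlap between seasons, where 0.136% (higher) and 0.042% (lower) of all genes were in GV and 0.0105% and 0.168% in MII. The median change from spring to summer was -0.01 among members in GV and -0.02 in MII. The median standard error of a member's difference was 0.221 in GV and 0.167 in MII. A member that was not called is not thereby shown to be equal in both seasons. The genes of the pathway lists also gave 0 calls in both stages.

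The 2 members under 0.05 in GV were PRDX1 and NQO1. PRDX1 ran from 25.5 to 51.7 FPKM in spring (median 31.4) and from 41.3 to 63.9 in summer (median 52.8), and 3 summer libraries lay above all of spring. The difference was 0.58 (SE 0.238, exact permutation p = 0.026, limma adjusted p = 1). NQO1 had a median of 0.999 in spring and 1.59 in summer, with a difference of 0.43 (SE 0.199, exact permutation p = 0.039, limma adjusted p = 1). Without the 3 shallow libraries NQO1 differed by 0.27 (SE 0.172) and was no longer under 0.05 before adjustment. In that refit 6 members were under it, and none was called, where 0.0315% of all genes were called. The share of all genes under 0.05 in that refit is not given here, so the 6 are not read as particular to the members. The chromosome 27 row of GSR was among the 6, lower in summer, which is not read as a change of the gene. With all libraries that row had a value in 5 of 6 spring GV and 3 of 6 summer GV libraries. Of the others, PRDX1, GSTM3 and TXNDC12 were higher in summer, and TXNL4A and GLRX2 were lower. Among them, GSTM3 differed by 0.46 (SE 0.122, limma adjusted p = 1), with 4 of 6 summer values above all of spring when all libraries are used.

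In MII oocytes the 2 were TXN and GSTK1. TXN ran from 5.14 to 14.1 FPKM in spring (median 6.33) and from 7.91 to 26.8 in summer (median 13.4), a difference of 0.88 (SE 0.311, exact permutation p = 0.0238, limma adjusted p = 1). GSTK1 had medians of 0.232 in spring and 0.109 in summer and a ratio of means of 1.82, and its difference on the log2(FPKM + 1) scale was -0.12 (SE 0.0424, exact permutation p = 0.0195, limma adjusted p = 1), which the added 1 FPKM understates. With a pseudocount of 0.1 it was -0.56 (limma adjusted p = 1). GPX1 in MII had medians of 9.04 in spring and 2.98 in summer, and its difference was -0.71 (SE 0.535, limma adjusted p = 1) in all libraries. Without the 3 shallow libraries it was -1.07 (SE 0.460, limma adjusted p = 1) and met the call thresholds.

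**Figure D5:**
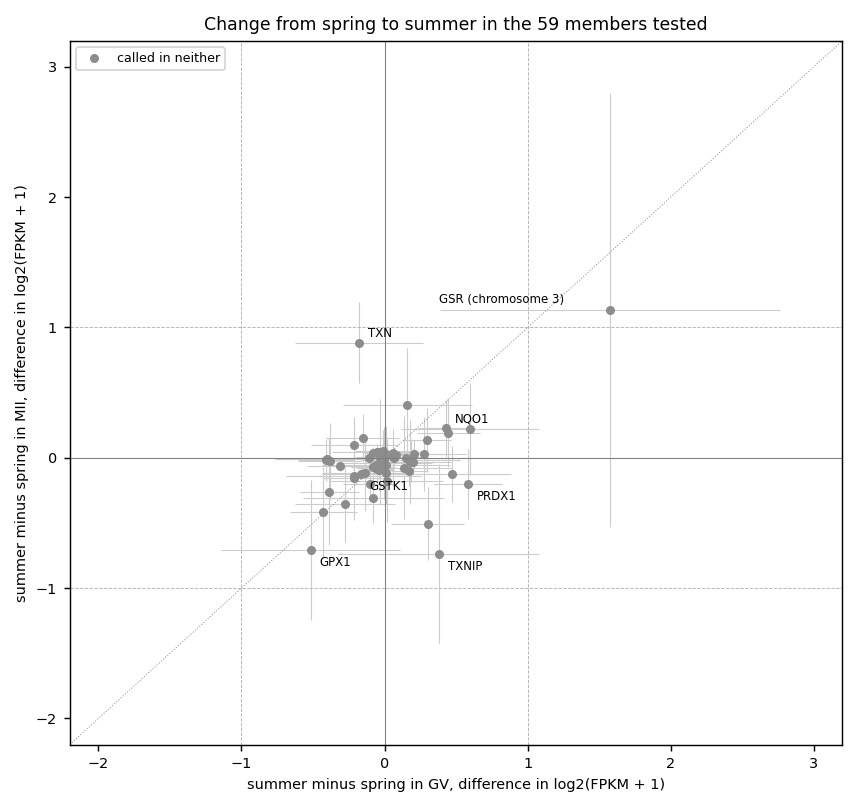
Difference between summer and spring in log2(FPKM + 1) in GV (horizontal axis) and in MII oocytes (vertical axis), with 1 point for each of the 59 members tested and lines for 1 standard error. Dashed lines mark a 2-fold change and the dotted line equal changes. No member was called in either stage, most points lie near 0, and the outlying point of GSR on chromosome 3 is a row with a value in only 9 libraries.

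The change from GV to MII did not differ between seasons for any member at the call thresholds, in a fit over all 4 groups. Limma called 0 of 59, against 0.21% of all genes, and 2 members had an unadjusted p under 0.05, against 1.8% of all genes. For PRDX1 the change was 1.0 in spring and 0.22 in summer, a difference of -0.79 on the log2 scale (SE 0.359, limma adjusted p = 1). Without the 3 shallow libraries this difference was -1.06 (SE 0.313, limma adjusted p = 1) and met the thresholds. For PRDX6, a bifunctional peroxiredoxin with phospholipase activity, the changes were 0.48 in spring and -0.32 in summer, and the difference was -0.81 (SE 0.378, limma adjusted p = 1). Leaving out the 3 shallow libraries reduced the PRDX6 difference to -0.60 (SE 0.314), which missed the p threshold before adjustment. TXN had the largest positive difference, 1.06 (SE 0.559, limma adjusted p = 1), which missed the p threshold also before adjustment. Leaving out single libraries moved the TXN difference between 0.74 and 1.27. It was lowest without spring GV replicate 3, where TXN was 36.7 FPKM. The season and stage comparisons share libraries, so the spring GV values of PRDX1 enter both its stage and its season difference.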

How the data were processed

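RNA-seq of 24 pools of GV or MII oocytes was used as deposited. Per the study's methods and the submitters' processing notes, the authors checked reads with FastQC, aligned them with STAR 2.5.3a to the bovine assembly UMD3.1.1 (UMD3.1 in the notes) and quantified them in Partek. The deposited values are FPKM per gene. They sum to 86768 in every library and are never below 0.01, so they were rescaled and floored by a step not given in the sources used here.

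From these, log2(FPKM + 1) was computed for the 9526 rows over 0.1 in at least 1 library and tested with limma 3.58.1 in R 4.3.3 (trend = TRUE). The fit held the 2 groups compared, or all 4 for the season difference in the change from GV to MII. P-values were two-sided and Benjamini-Hochberg adjusted over all rows tested, in 5 comparisons. Exact permutation tests used all 924 assignments of 6 and 6 libraries. Relative depth was read in Python 3.11.15 with numpy 2.4.6 from the steps of low values, and 94.6% of 11656 values not used to set it lay within 0.1 of a whole step, where 20% would by chance. The study reports read totals per sample, but these were not turned into counts per gene, so counting error is not given. Scripts were tested on simulated data. No 2 libraries were identical.

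Members, pathway lists and markers were chosen with earlier results of these data known. Values are given for called members (the 4 with the smallest stage p where a role had more), the most abundant of each role, symbols at 2 loci, and NFE2L2, KEAP1, CAT, SOD1, SOD2, GCLC, GCLM, GSS and GSR, and for the 3 called pathway genes of smallest p per comparison. Other members named passed the adjusted threshold alone or complete a role, and were chosen after their values were seen. Alternatives were a pseudocount of 0.1, no filter, median-of-ratios scaling, a replicate block, leaving out the 3 libraries with the lowest mapped share in the study's alignment table (the shallow ones), leaving out each library, adjusted p alone, and all 4 groups in 1 fit. The labels do not say whether replicate numbers pair libraries, and the main fits did not pair them. Overlapping rows and close gene copies are uncertain, because strand and multi-mapping settings are not given in the sources used here.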

Additional observations from a re-analysis of the deposited data

Results flagged for a closer look

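In 116 groups of 6 values (29 members in 4 groups each), 22 had a library that stood apart from the other 5 by Dixon's criterion at the 95% level, which chance alone meets in about 1 of 20 groups. The 3 shallow libraries held 20 of the 22: summer GV replicate 2 held 8, spring GV replicate 6 held 6 and spring MII replicate 6 held 6.

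In summer GV replicate 2 the values standing apart were low for the abundant GSTM3 (582 FPKM, others from 1613), PRDX2 (260, others from 882) and TXNDC9 (14.4, others from 35.4). They were high for CAT (1.70, others to 0.881), GCLC (0.205, others to 0.0439), GLRX3 (4.50, others to 2.61), GSS (0.496, others to 0.118) and KEAP1 (6.30, others to 1.52).

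In spring GV replicate 6 the low ones were GSTM3 (242 FPKM, others from 1365) and MGST2 (0.503, others from 1.57). The high ones were GCLC (0.209), MSRB2 (0.351), TXNL4A (6.51) and GSR on chromosome 3 (23.2, the other 5 at 0.01). In spring MII replicate 6, GSTP1 (1.36 FPKM, others from 3.97) and PRDX1 (35.7, others from 69.4) were low, while CAT (3.37), GCLC (0.221), GLRX3 (1.27) and SOD2 (7.54, others to 3.03) were high. The other 2 were PRDX3 in summer MII replicate 2 (31.3, others to 14.0) and GCLC in summer MII replicate 6 (0.147, others to 0.0695).

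PRDX1 and PRDX6 changed differently from GV to MII in the 2 seasons by the fitted difference itself, at -0.79 and -0.81. Both met p under 0.05 before adjustment, and the limma adjusted p was 1.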

How the results depend on the processing

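Of 1239 refitted values of the 67 member differences the text turns on, 1165 kept their sign and side of the call thresholds, 48 gained a call and 18 lost one, the losses being PRDX1 (8), SOD1 (7), PRDX3 and TXNDC9 (1 each) in spring and NQO2 (1) in summer. The other 8 changed sign, none of them in a called difference. Most of the 67 were not called in the main fit, and a difference that stayed uncalled counts as kept. The refits share most of their libraries, so these counts are not independent. Leaving out libraries moved PRDX4 in spring (-0.10 with all) between -0.23 and 0.22, above 0 without spring MII replicate 6 or the 3 shallow libraries. It moved SRXN1 in summer (0.04 with all) between -0.17 and 0.31, below 0 without summer GV replicate 1, 3, 5 or 6 or summer MII replicate 4 or 6. Over all 59 members tested, leaving out the 3 shallow libraries changed the sign of 3 and 2 differences between stages in spring and summer, of 11 and 14 between seasons in GV and MII, and of 19 season differences in the change from GV to MII, 0 of which met an unadjusted p under 0.05 in limma with or without them. It added 2 and 3 stage calls and lost 0, where 12.9% and 12.5% of all genes were called.

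With a pseudocount of 0.1, the members called between stages numbered 21 in spring and 19 in summer, where calls among all genes rose to 27.6% and 26.5%, and with adjusted p alone 19 and 23 (24.2% and 30.7% of all genes). With a pseudocount of 0.1 the split was 8 higher and 13 lower in spring, and 3 higher and 16 lower in summer. Beside those given above, the newly called members included NQO1 (1.32), GSTA4 (1.26), TXNDC12 (1.02) and GPX8 (1.0) in spring. In summer they included TXNL4A (-1.16) and HMOX2 (-1.19). Further newly called members, lower in MII, are not named here. Leaving out single libraries gave 10 to 15 stage calls in spring, where 10.6% to 14.2% of all genes were called. In summer it gave 9 to 13, against 10.6% to 12.5% of all genes. Between seasons this gave 0 in GV throughout and 0 to 1 in MII, against 0.0315% to 0.136% and 0.021% to 0.168% of all genes. The 1 in MII was TXN without spring MII replicate 5 or summer MII replicate 2, and GPX1 without spring MII replicate 6. For the season difference in the change from GV to MII this gave 0 to 1, against 0.157% to 0.43% of all genes. The 1 was TXN (without spring GV replicate 2 or 6, summer GV replicate 5, spring MII replicate 5 or summer MII replicate 2). Without the 3 shallow libraries, 1 member was called between seasons in MII (GPX1) and 1 for the season difference (PRDX1). Of all genes, 0.0945% and 0.22% were called there. Median-of-ratios scaling called 1 (TXN) for the season difference, against 0.127% of all genes. The cause was not tested. The other alternatives left these counts within 1.5 times.

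Same-numbered libraries correlated over 0.1 in 3, 4, 1 and 4 of 6 pairs (spring stage, summer stage, GV season, MII season). In the same order, the best match of a library had its own number in 2, 3, 0 and 4. Whether replicate numbers pair libraries was thus not settled, and the main fits did not pair them. A replicate block gave 13 and 10 calls between stages, 0 between seasons in GV and in MII, and 1 (TXN) for the season difference. Of all genes, it called 11.9% and 11.4% between stages, 0.042% and 0.063% between seasons, and 0.241% for the season difference.

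Depth limits the low members most. A low value rests on fewer fragments in the shallow libraries than in the others, and how many was not worked out. Under about 1 FPKM a difference is also understated by the pseudocount.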
